A study of Mus musculus with 10 samples.

Results

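Nuclear long noncoding RNAs (lncRNAs) were examined in single-cell RNA-seq counts of mouse retinal ganglion cells (RGCs), the projection neurons of the retina, with and without optic nerve crush (ONC). The set was Malat1, Neat1, Meg3, Rian, Mirg, Miat, Snhg11 and Kcnq1ot1, taken by gene symbol, and all 8 of 8 were found among the 34254 genes of the counts and had at least 1 UMI (unique molecular identifier, a captured RNA molecule) in each of the 10 libraries. The uninjured group held 6 libraries and the injured group 4 libraries taken 2 weeks after ONC. All were labelled as wild-type 129S1/SvImJ mice, 12 weeks old and of both sexes, and each batch of cells came from 10 pooled retinas and was purified on Thy1 antibody after removal of macrophages (and, by the study's methods, of amacrine cells), with 6000 cells loaded per batch. Cells were selected as RGCs before deposit, and the labels do not say whether retinas of an animal were shared between libraries, so p-values measure the spread between these libraries.

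The counts held 1683 uninjured and 1609 injured cells, and each of them had UMIs of the RGC genes Rbpms, Slc17a6, Sncg and Tubb3. Uninjured libraries had 98 to 651 cells and a median of 20437 to 34337 UMIs per cell, and injured libraries had 273 to 527 cells and 11257 to 14695 UMIs per cell. The injured libraries 3 and 4 shared 421 cell barcodes and differed by no more than sampling noise, so their mean was used as 1 sample, injured 3/4, and n was 6 uninjured and 3 injured samples. Several other properties moved with injury. Ribosomal protein (RP) genes took 3.04 to 4.05% of UMIs in uninjured and 4.72 to 5.86% in injured libraries, amacrine cell markers took 0.00505 to 0.0174% against 0.0238 to 0.0290%, and Müller glia markers took 0.0112 to 0.0192% against 0.00945 to 0.0120%. The female transcript Xist was detected in 62.1% of injured 1 cells, 67.4% of injured 2 cells and no more than 0.57% of cells of any other library, which goes against the label of both sexes for those 8 libraries. Between 7.96 and 28.7% of uninjured and 2.97 and 11.4% of injured cells had UMIs of at least 3 markers of another retinal class. UMIs of mCherry, which the study used as a control vector elsewhere, were found in the 4 injured libraries alone, so injury and any injection of a vector cannot be told apart between these groups. The part of these in the results was not tested except where values are given.

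Most long noncoding RNAs of this set stay in the nucleus. Malat1 collects in nuclear speckles, domains rich in splicing factors, and Neat1 builds paraspeckles, which do not form without it. Meg3, Rian and Mirg are transcribed in the same direction from the maternal copy of the imprinted Dlk1-Dio3 region and carry small nucleolar RNAs (snoRNAs) and microRNAs. Kcnq1ot1 is made from the paternal copy inside the Kcnq1 gene and silences neighbouring genes there in cis, Miat (also called Gomafu) is a neuronal RNA with repeats that bind splicing factors, and Snhg11 is a snoRNA host transcript that is abundant in neurons. In counts from whole cells, a rise of a nuclear RNA relative to all UMIs and a loss of cytoplasmic RNA per cell cannot be told apart, nor can fewer cells of a subtype and less RNA per cell.

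In the GENCODE vM39 annotation of mm39 (GRCm39), the genome build of the counts, all 8 genes were classed as lncRNA. Malat1 (ENSMUSG00000092341.7, chr19:5845717-5853602, reverse strand) and Neat1 (ENSMUSG00000092274.6, chr19:5874736-5897132, reverse strand) lie near each other, and transcript models together covered 100% of both spans with exons. Meg3 (ENSMUSG00000021268.20, chr12:109506877-109538165), Rian (ENSMUSG00000097451.13, chr12:109570242-109628150) and Mirg (ENSMUSG00000097391.10, chr12:109696198-109715898) follow one another on the forward strand, with 61.7, 55.2 and 49.0% of their spans exonic. Miat (ENSMUSG00000097767.11) is at chr5:112361094-112377261 on the reverse strand and Snhg11 (ENSMUSG00000044349.18) at chr2:158217558-158228071 on the forward strand. Kcnq1ot1 (ENSMUSG00000101609.5, chr7:142731402-142850327, reverse strand) spans 118926 bases opposite to the protein-coding gene Kcnq1, and Rian lies opposite to the protein-coding gene Rtl1. Kcnq1 had 73 UMIs over all libraries and Rtl1 had 535, against 13812 uninjured and 6062 injured UMIs of Kcnq1ot1 and 19189 and 8908 of Rian.

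The sequences given here bear on how these RNAs are captured, read or processed. Malat1 does not end in a normal poly(A) tail. Its mature end is made by cleavage next to a tRNA-like element, and a genome-encoded run of A folds with stretches rich in U into a triple helix that protects the end. The RNA of this assay was labelled poly(A) RNA, and this run of A was the only one of at least 10 bases in the Malat1 span. It measured 12 bases, ended 299 bases before the annotated gene end and is in capitals in the following window (GRCm39, chr19:5845956-5846117, reverse strand, given 5′ to 3′ of the RNA).
Malat1 3′ end: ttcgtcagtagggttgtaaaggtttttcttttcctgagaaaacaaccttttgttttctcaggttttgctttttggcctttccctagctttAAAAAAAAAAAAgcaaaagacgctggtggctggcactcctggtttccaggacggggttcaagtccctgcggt
On the transcribed strand of the whole span, runs of at least 10 A numbered 0 in Neat1, 1 in Snhg11, 2 in Mirg, 2 in Miat, 5 in Rian, 7 in Meg3 and 12 in Kcnq1ot1. Per 10 kb, Meg3 had the most with 2.24 and Malat1 had 1.27, and the median of 15635 genes of at least 1 kb on the same 5 chromosomes was 0.561. Whether the reads started at these runs was not tested.

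Miat is known for copies of the letters ACTAAC, which resemble the intron branch point and bind the splicing factor Sf1. The span of Miat held 11 copies on its transcribed strand, or 6.80 per 10 kb, and 97.7% of the 15635 genes had a lower density. Malat1 had 0 copies, and the other members had between 0.639 (Meg3) and 2.03 (Mirg) per 10 kb, the median of all those genes being 1.09. The exonic stretch with 4 of the copies in capitals is as follows (GRCm39, chr5:112365176-112365325, reverse strand).
Miat repeat: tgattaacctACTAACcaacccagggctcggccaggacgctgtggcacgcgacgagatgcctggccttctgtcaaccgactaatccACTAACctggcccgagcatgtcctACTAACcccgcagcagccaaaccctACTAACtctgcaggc

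The imprinted transcripts are hosts. RefSeq (GRCm38.p6) placed 1 microRNA hairpin inside Meg3 (Mir770) and the mature miR-1906, 3 inside Rian (Mir341, Mir1188 and Mir370) and 10 inside Mirg, on the host's strand, and 0 inside the other members. Mature microRNAs were not measured here. Examples of those within Mirg, the member that carries most of them, are given with the seed (bases 2 to 8) in capitals. Of its 19 mature sequences, miR-453 and miR-496a-5p had the same seed.
mmu-miR-453: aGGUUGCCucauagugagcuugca
mmu-miR-496a-5p: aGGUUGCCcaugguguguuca
mmu-miR-410-3p: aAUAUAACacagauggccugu
mmu-miR-409-3p: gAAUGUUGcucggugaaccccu
The first of 2 listed start regions of Meg3, from which the maternal transcripts of the region are thought to be read, held the palindrome TGACGTCA, the cAMP response element, in capitals below (RefSeq, GRCm38.p6, chr12:109540746-109541045, forward strand). The other Meg3 region, and the 6 used for Snhg11, Miat, Kcnq1ot1, Rian, Mirg and Malat1, did not hold these letters (searched on both strands), and 1.79% of all 32851 listed start regions of the same length held them.
Meg3 promoter: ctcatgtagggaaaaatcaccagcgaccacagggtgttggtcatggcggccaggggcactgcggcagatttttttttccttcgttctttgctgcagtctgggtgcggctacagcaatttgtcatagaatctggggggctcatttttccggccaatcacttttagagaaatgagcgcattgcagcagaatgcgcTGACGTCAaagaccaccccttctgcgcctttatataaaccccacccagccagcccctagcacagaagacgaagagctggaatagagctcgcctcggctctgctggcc

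Malat1, Meg3 and Snhg11 were among the most abundant transcripts of RGCs. By mean normalised level (CPM, UMIs scaled to a common library total with TMM factors) over 14234 genes, Malat1 ranked 1 in uninjured and in injured samples, Meg3 ranked 9 and 6, and Snhg11 ranked 15 and 20. Rian ranked 447 and 437, Kcnq1ot1 791 and 678, Miat 2507 and 1791, Mirg 3987 and 5140, and Neat1 13861 and 11433. Per kilobase of annotated exon, the uninjured means were 4048 CPM per kb for Malat1, 362 for Snhg11, 192 for Meg3, 10.9 for Rian, 7.96 for Miat, 5.33 for Mirg, 2.47 for Kcnq1ot1 and 0.0458 for Neat1. A UMI counts a captured molecule and not its length, so the values per kb are no measure of the number of molecules. By CPM, Kcnq1ot1 (uninjured mean 232) was above Miat (83.9) and Mirg (51.5), but per kb it was below both. The paraspeckle RNA was at the bottom and the speckle RNA at the top in both orders, although the genes are neighbours. How fully each RNA was captured was not tested.

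**Figure D1:**
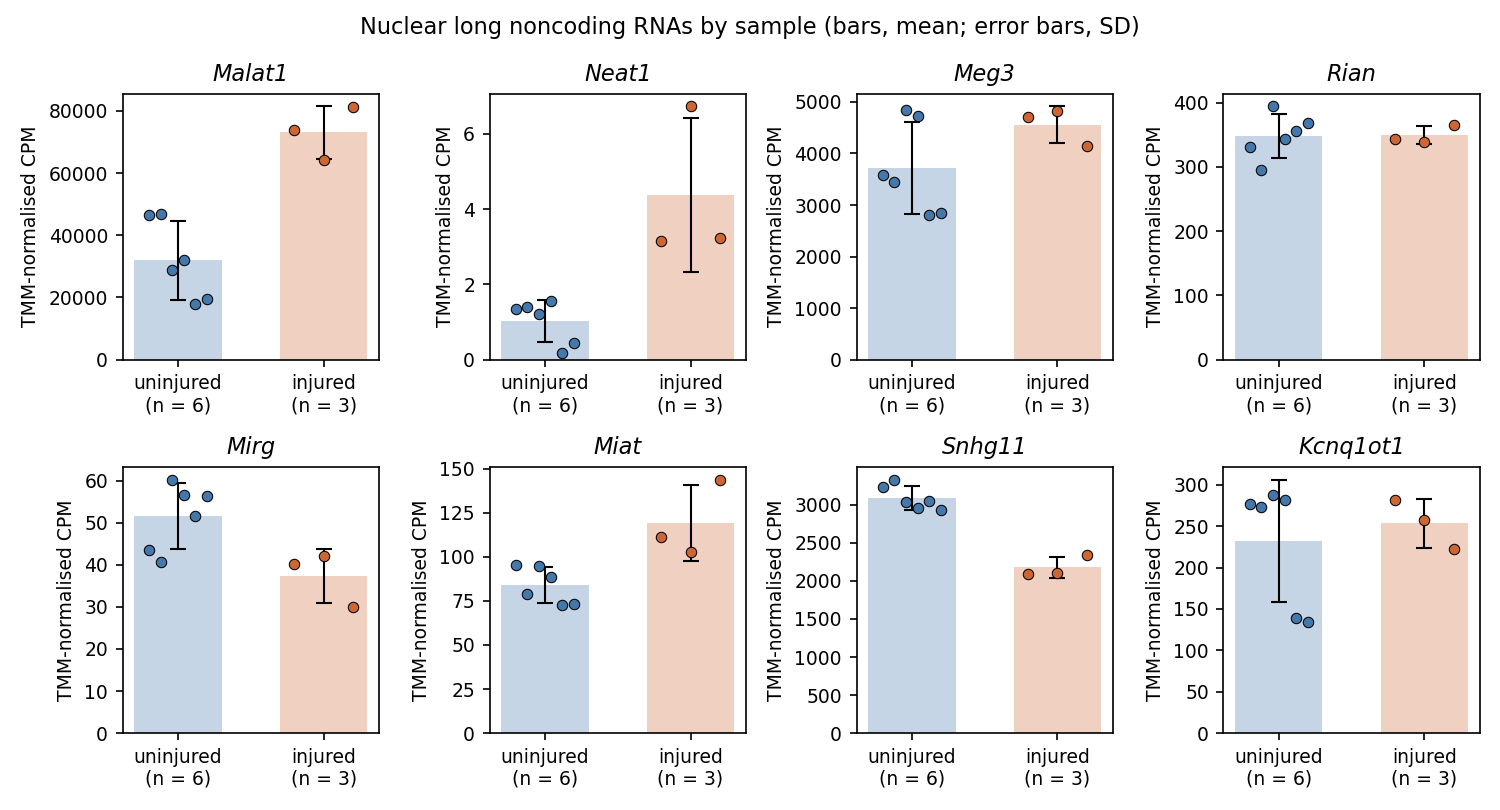
Level of each RNA (TMM-normalised CPM, vertical axis) in 6 uninjured and 3 injured samples. Bars are means, error bars are SD and points are samples. Malat1, Neat1 and Miat lie higher and Snhg11 lower in every injured sample than in any uninjured sample, and the other 4 RNAs overlap between conditions.

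Across conditions, 5 of the 8 RNAs passed the test for injury (edgeR quasi-likelihood, Benjamini-Hochberg adjusted p under 0.05 over all 14234 genes), 3 of them higher and 2 lower after ONC. Of all genes tested, 44.0% passed, 21.3% higher and 22.7% lower, so the count for the 8 is near the background. In CPM, the 2 conditions did not overlap for 4 of the 8 RNAs, and did not overlap for 42.9% of all genes. The median log2 fold change was 0.21 over the 8 RNAs and -0.03 over all genes. Without Neat1, which entered the test only through its injured samples, 4 of 7 RNAs passed, 2 higher and 2 lower, 3 did not overlap, and the median was 0.13.

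Malat1 rose relative to the UMIs of a library. Raw counts per cell did not separate the conditions. Uninjured 2, with 167139 Malat1 UMIs from 103 cells, had more per cell than any injured library. Uninjured 5, with 97703 from 267 cells, had fewer than any injured library. All 1683 uninjured cells held 1649678 Malat1 UMIs, and all 1609 injured cells held 1915638. In normalised level, Malat1 was between 17962 and 46856 CPM in uninjured samples with a median of 30415, and at 73701, 64277 and 81135 CPM in injured 1, 2 and 3/4. Every injured sample lay above every uninjured sample. The means were 31919 ± 12619 (SD, n = 6) and 73038 ± 8449 (SD, n = 3), with a log2 fold change of 1.19 (SE 0.33, 95% interval 0.48 to 1.91, edgeR adjusted p = 0.0108), and the exact permutation test over samples gave p = 0.0238, the smallest that 6 against 3 allows. Uninjured libraries fell into pairs that differed from each other more than within, with mean levels of 46665 in libraries 1 and 2, 30415 in 3 and 4, and 18676 in 5 and 6. The mean log2 difference of the injured samples was 0.64 over the first of these pairs, 1.26 over the second and 1.96 over the last. Only when similar libraries were summed, leaving 3 uninjured and 2 injured samples, was the call lost (log2 fold change 1.23, adjusted p = 0.0913).

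As a share of all UMIs, Malat1 made up 1.72 to 4.88% in uninjured and 6.09 to 7.98% in injured samples. The 8 RNAs together made up 4.04 ± 1.46% (SD, n = 6, range 2.34 to 5.66) and 7.78 ± 0.94% (SD, n = 3, range 6.82 to 8.69), a difference of 3.73 percentage points (exact permutation test, two-sided, p = 0.0238). This difference was Malat1's. The 7 RNAs other than Malat1 together took 0.766 ± 0.130% of uninjured and 0.723 ± 0.009% of injured UMIs, and these ranges overlapped (exact permutation test, p = 0.619).

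Within a library, cells differed widely in Malat1. All cells had Malat1 UMIs, the library medians were 1.72 to 4.82% of a cell's UMIs in uninjured and 6.37 to 7.78% in injured libraries, and the highest cell was at 12.7% and 29.2%. The 5th percentile was as low as 0.676% in an uninjured and 1.42% in an injured library.

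**Figure D2:**
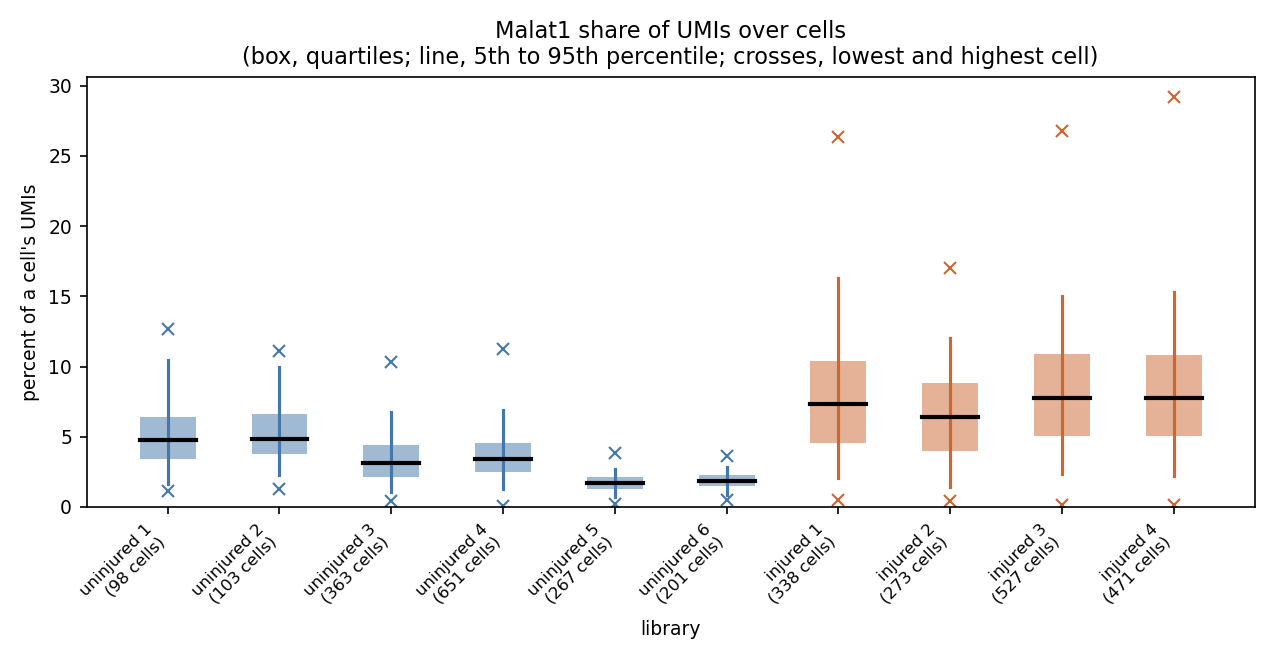
Malat1 as percent of a cell's UMIs (vertical axis) in each of the 10 libraries, with the number of cells. Black lines are medians, boxes quartiles, vertical lines the 5th to 95th percentile and crosses the lowest and highest cell. All 4 injured medians (6.37 to 7.78%) lie above all 6 uninjured medians (1.72 to 4.82%).

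Neat1 was at very low counts, and its level relative to library size was higher after ONC. The uninjured libraries had 4, 5, 16, 38, 1 and 2 Neat1 UMIs, and the injured libraries 18, 30, 28 and 20. Between 0.375 and 5.22% of uninjured and 3.82 and 5.49% of injured cells had a Neat1 UMI, ranges that overlap, and with each cell thinned to 5000 UMIs the shares were 0 to 1.94% and 0.965 to 2.96%. In normalised level it was at 0.184 to 1.56 CPM (median 1.28) in uninjured samples and at 3.15, 6.74 and 3.22 CPM in the injured ones. No uninjured sample reached the lowest injured sample. The means were 1.03 ± 0.57 (SD, n = 6) and 4.37 ± 2.05 CPM (SD, n = 3), with a log2 fold change of 1.95 (SE 0.45, 95% interval 0.96 to 2.94, edgeR adjusted p = 0.00431). Neat1 passed the filter on low counts only through the injured samples, so a difference was part of how it entered the test. Without that filter it was also past the threshold (log2 fold change 1.95, edgeR adjusted p = 0.00268), and it could not be tested where at least 10 counts were asked of every library. No cell type that lacks Neat1 was available to set a background from free RNA, so whether these UMIs came from the RGCs themselves was not tested. The value rests on 66 uninjured UMIs and on 18, 30 and 24 UMIs in injured 1, 2 and 3/4. The last of these is the mean of injured 3 and 4. Injured 2 had its 30 UMIs in 15 cells, with 6 of them in a single cell. The call was lost when libraries that resembled each other were joined by a random block (log2 fold change 1.65, adjusted p = 0.0814).

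Miat rose by less, again relative to the UMIs of a library. In raw counts it had 4692 UMIs in 1683 uninjured cells and 3233 in 1609 injured cells, so UMIs per cell were not higher after ONC. In normalised level, Miat was at 72.8 to 95.3 CPM in uninjured samples with a median of 83.7. Injured 1, 2 and 3/4 were at 111, 103 and 144 CPM, with no overlap. As a share of all UMIs the ranges overlapped, at 0.00691 to 0.00997% and 0.00975 to 0.0142% (exact permutation test, p = 0.0714). The log2 fold change was 0.51 (SE 0.15, 95% interval 0.19 to 0.83, edgeR adjusted p = 0.0145). Injured 3/4 was the highest, and without it the log2 fold change was 0.37 and the adjusted p 0.0922. Among cells without mCherry UMIs it was at 1.12 (adjusted p = 0.0169). In injured 3 and 4 these cells had 1.17 and 1.54% RP UMIs, against 5.30 and 5.16% in cells with mCherry. Their Miat shares were 0.0371 and 0.0333%, against 0.0109 and 0.0119%. In injured 1 and 2 the Miat shares without mCherry were 0.0104 and 0.00984%, against 0.0137 and 0.00925% with it. The call was also lost with library totals alone (0.43, adjusted p = 0.0578), in cells thinned to 5000 UMIs (0.40, adjusted p = 0.110) and with similar libraries summed (0.58, adjusted p = 0.0790).

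Snhg11 fell. It was at 2933 to 3329 CPM in uninjured samples with a median of 3047, the narrowest relative spread among the 8 in uninjured samples, and at 2093, 2108 and 2334 CPM in injured samples. No injured sample reached the lowest uninjured one. The log2 fold change was -0.50 (SE 0.15, 95% interval -0.84 to -0.17, edgeR adjusted p = 0.0196). It stayed below 0 under all alternatives run but did not pass in 6 of 32, namely without injured 1 (adjusted p = 0.0908) or injured 2 (adjusted p = 0.0849), without a filter on low counts (adjusted p = 0.0554), with similar libraries summed (adjusted p = 0.254), in cells between the quartiles of RP share (log2 fold change -0.28, adjusted p = 0.181) or in cells without mCherry UMIs (-0.41, adjusted p = 0.161).

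Of the 3 imprinted neighbours of the Dlk1-Dio3 region, Mirg alone passed the test over all cells. Meg3, which has growth-restraining activity in other cells, was at 2809 to 4845 CPM in uninjured samples with a median of 3512, and at 4710, 4814 and 4142 CPM in injured samples, inside the uninjured range, and did not pass the test (log2 fold change 0.30, SE 0.22, 95% interval -0.18 to 0.78, edgeR adjusted p = 0.299). Rian, the host of many snoRNAs, was at 294 to 394 CPM with a median of 349 in uninjured and at 343, 339 and 365 CPM in injured samples (log2 fold change 0.01, SE 0.13, 95% interval -0.29 to 0.30, adjusted p = 0.979). The sign of the Rian value turned under other scalings, such as library totals alone (-0.06). Mirg, the microRNA host, was at 40.7 to 60.2 CPM with a median of 54.0 in uninjured and at 40.1, 42.0 and 30.1 CPM in injured samples. In CPM the conditions overlapped for Mirg, since uninjured 1 and 2 averaged 42.1 CPM. As a share of all UMIs they did not, at 0.00423 to 0.00632% and 0.00297 to 0.00398% (exact permutation test, p = 0.0238). Mirg passed the test as lower (log2 fold change -0.47, SE 0.17, 95% interval -0.84 to -0.11, edgeR adjusted p = 0.0362), but not in 11 of 32 alternatives. Without injured 3/4 it was at -0.31 (adjusted p = 0.203), and among cells without mCherry UMIs it was at -0.12 (adjusted p = 0.655).

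Kcnq1ot1 was at 135 to 288 CPM in uninjured samples with a median of 275, and at 281, 257 and 222 CPM in injured ones, and did not pass (log2 fold change 0.13, SE 0.26, 95% interval -0.45 to 0.70, edgeR adjusted p = 0.729). Uninjured 5 and 6 stood apart with a mean of 137 CPM, against 275 in uninjured 1 and 2 and 285 in 3 and 4. With libraries 1 to 4 of each condition alone, with injured 3 and 4 counted separately although they share most of their cells, the sign turned (log2 fold change -0.21, adjusted p = 0.0926).

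RP transcripts are cytoplasmic, so the RP share of a cell was used as a measure against which to set the nuclear RNAs. The cells of each library were split by RP share into 4 groups of equal number, and the lowest group (RP-poor) was compared with the highest (RP-rich), each RNA being taken as a share of UMIs that were neither RP nor mitochondrial. All 7 RNAs with enough UMIs were higher in the RP-poor group. Rian led with a mean log2 ratio of 1.32 ± 0.47 (SD over 9 samples), followed by Kcnq1ot1 with 1.13 ± 0.39, Miat with 1.03 ± 0.69, Mirg with 0.93 ± 0.56, Meg3 with 0.85 ± 0.38, Snhg11 with 0.52 ± 0.14 and Malat1 with 0.35 ± 0.36. The order of neighbours in this list is within their spreads. RP share was taken over all UMIs, so a cell with much Malat1, the most abundant RNA, has a lower RP share by construction. How much of the Malat1 ratio comes from this was not tested.

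The 6 RNAs other than Malat1 were above 0 in 9 of 9 samples (exact sign-flip permutation test, p = 0.00391, the smallest that 9 samples allow, adjusted p = 0.00456 over 7 RNAs) and Malat1 in 8 of 9 (adjusted p = 0.0234). This test takes the 9 samples as independent, although uninjured 1 and 2, 3 and 4, and 5 and 6, and injured 1 and 2, resembled each other. Averaged into 5 sets, an alternative chosen after seeing the data, all 7 RNAs were above 0 in 5 of 5 sets, with means from 0.32 (Malat1) to 1.41 (Rian), and the smallest exact p that 5 sets allow is 0.0625. Of 6136 genes compared in the same way, 28.7% were above 0 in all 9 samples and 22.2% were below 0 in all 9. The median gene had a log2 ratio of 0.14, with quartiles of -0.57 and 0.65. The mean ratio of Rian was at percentile 98.1 of these genes, Kcnq1ot1 at 95.4, Miat at 92.5, Mirg at 88.8, Meg3 at 85.0, Snhg11 at 68.6 and Malat1 at 59.8, the most abundant nuclear RNA being the lowest in this order.

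In Rian, for which the dependence was strongest, the share in uninjured 1 was 0.0661% in the RP-poor group and 0.0216% in the RP-rich one. Injured 3 had 0.0811 and 0.0176%, and uninjured 5, where the difference was small, had 0.0470 and 0.0309%. Injured 3/4 had the highest ratio of all samples for Rian (2.20), Mirg (2.13), Miat (2.03), Meg3 (1.57) and Kcnq1ot1 (1.58). In the same sample Snhg11 was at 0.65, below uninjured 3 and 4, and Malat1 was at 0.06. In injured 2, Malat1 was at -0.22. The ratios of injured and uninjured samples were not shown to differ for any of the 7 RNAs (exact permutation tests, adjusted p from 0.583 to 0.667 over 7), and for Malat1 they were 0.05 ± 0.26 (SD, n = 3) and 0.50 ± 0.32 (SD, n = 6). Neat1 had too few UMIs, with 18 in the RP-poor against 12 in the RP-rich groups of uninjured and 28 against 20 of injured libraries.

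**Figure D3:**
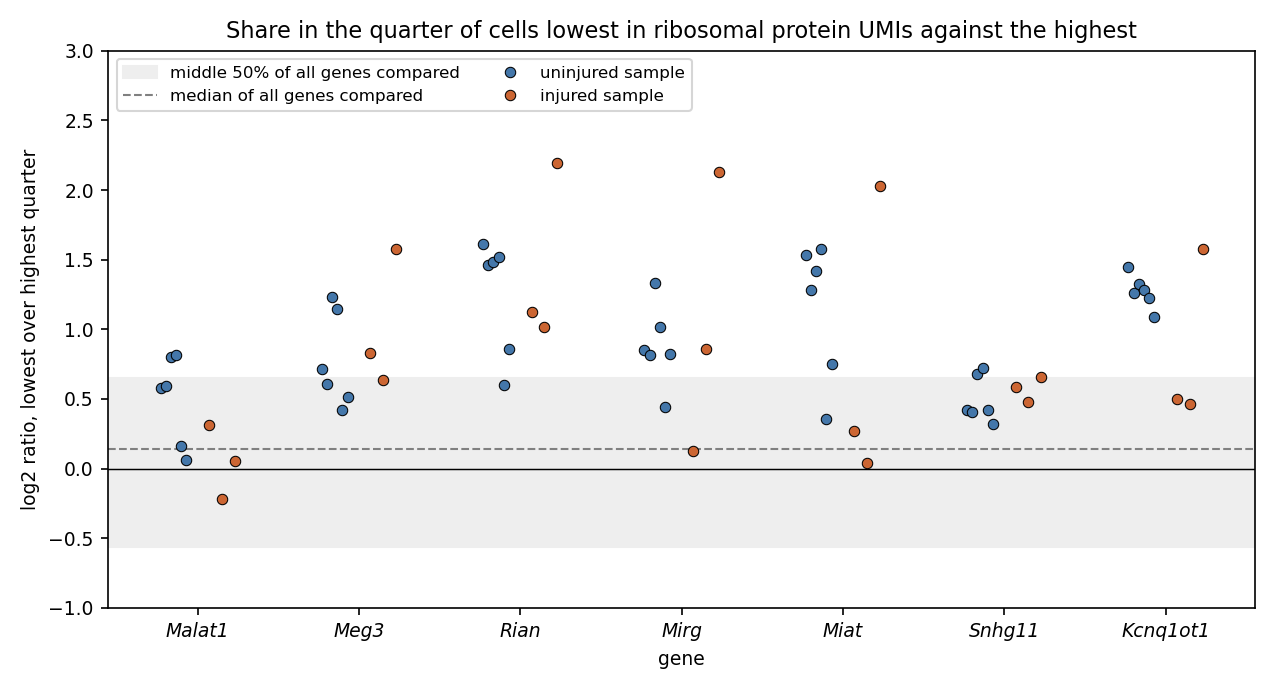
Log2 ratio of the share of each RNA in the RP-poor group of cells over the RP-rich group (vertical axis) in 6 uninjured and 3 injured samples. The grey band is the middle 50% of 6136 genes and the dashed line their median of 0.14. Rian, Kcnq1ot1, Mirg, Miat and Meg3 lie above the band in most samples, and Malat1 lies within it in all but 2 uninjured samples.

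Some cells had under 1% RP UMIs. They made up 7.71 to 12.2% of uninjured 1 to 4, at most 1.12% of uninjured 5 and 6 and of injured 1 and 2, and 18.8 and 17.0% of injured 3 and 4. Their median UMI counts were near those of the other cells of the library (28802 against 34797 in uninjured 4 and 11838 against 14980 in injured 3). In the 6 libraries with at least 10 such cells, the share of UMIs relative to the other cells was 2.20 to 3.62 times as high for Rian, 2.13 to 4.54 times for Miat, 2.13 to 3.42 times for Mirg, 1.65 to 2.50 times for Meg3, 1.45 to 2.70 times for Kcnq1ot1 and 1.05 to 1.43 times for Snhg11. Malat1 was not uniform. It was higher in the RP-poor cells of uninjured 3 and 4 (1.19 and 1.27 times) and lower in those of uninjured 1 and 2 (0.716 and 0.857 times) and of injured 3 and 4 (0.756 and 0.759 times). These ratios are descriptions of cells within libraries, injured 3 and 4 share most of their cells, and whether the cells were intact was not tested.

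**Figure D4:**
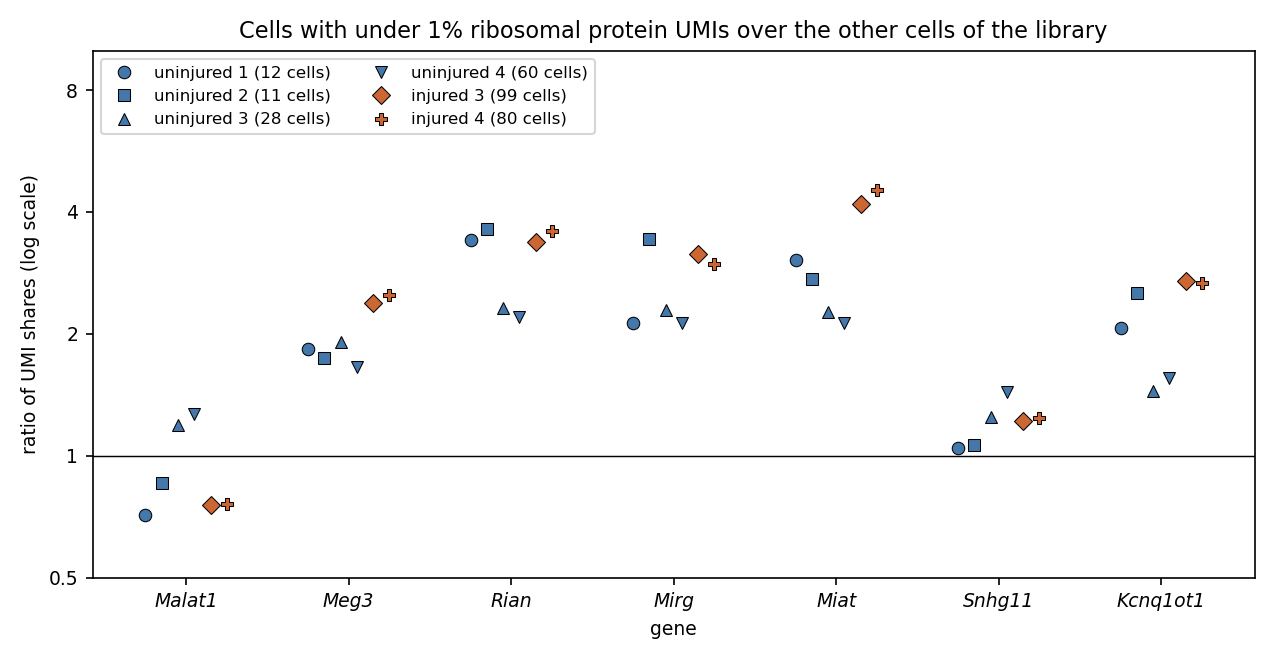
Share of UMIs in cells with under 1% RP UMIs over that in the other cells of the same library (vertical axis, log scale) for 7 RNAs in the 6 libraries with at least 10 such cells. A value of 1 means an equal share. All libraries lie above 1 for Meg3, Rian, Mirg, Miat, Snhg11 and Kcnq1ot1, and 4 of 6 lie below 1 for Malat1.

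Because RP share was higher in injured cells, the injury change was also fitted within 4 classes of cells, bounded by the quartiles of RP share over all cells (2.12, 4.10 and 5.53%). Class 1 had 563 uninjured and 241 injured cells and class 4 had 154 and 763. Injured 2 had too few cells in class 1, which left 2 injured samples there. Of the 7 RNAs tested, 0 passed in class 1, where 15.9% of all genes did, 3 in class 2 (38.1% of all genes), 4 in class 3 (44.2%) and 4 in class 4 (46.4%). In class 1, the unadjusted p of edgeR was under 0.05 for Malat1 (0.0483) and Miat (0.0311).

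The change of Malat1 was 0.96 on the log2 scale in class 1 (edgeR adjusted p = 0.161), 1.25 in class 2 (adjusted p = 0.0178), 1.41 in class 3 (adjusted p = 5.5e-04) and 1.63 in class 4 (adjusted p = 7.1e-07). In class 4 the levels were 22870 ± 5369 CPM (SD, n = 6) and 70572 CPM, so the difference was as large among RP-rich cells as among all cells. Miat rose in classes 2, 3 and 4 by 0.57, 0.94 and 0.85 (adjusted p from 1.6e-04 to 0.00649), more than its 0.51 over all cells. Kcnq1ot1, which did not pass over all cells, was higher in class 3 (0.60, adjusted p = 0.0366) and class 4 (0.61, adjusted p = 0.0151), and Meg3 was higher in class 2 (0.51, adjusted p = 0.0455) and class 3 (0.69, adjusted p = 0.00502) but did not pass in class 4 (0.21, adjusted p = 0.311). Rian passed in no class, with values from 0.11 to 0.52. Snhg11 was lower in class 4 (-0.50, adjusted p = 0.0107) and did not pass in class 2 (-0.26) or 3 (-0.27). Mirg was between -0.48 and -0.19 in the 4 classes and passed in 0 of them. Differences between classes were not tested.

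**Figure D5:**
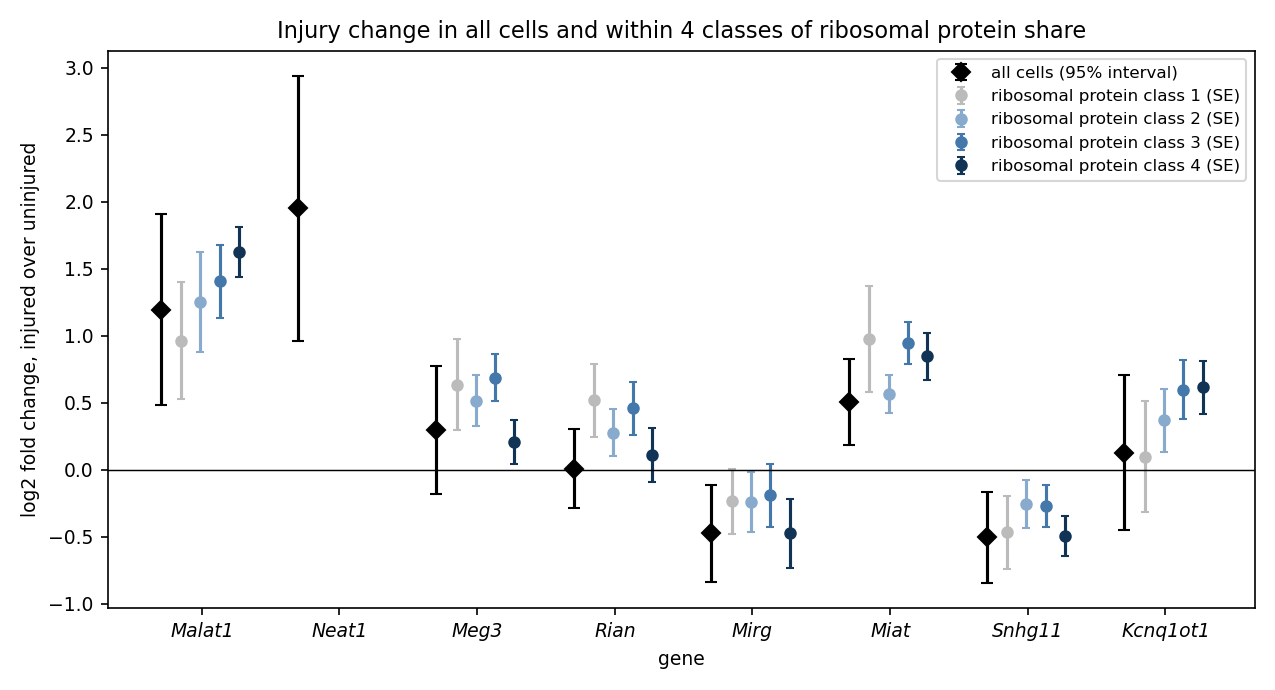
Log2 fold change of injured over uninjured samples (vertical axis) for each RNA. Diamonds are all cells with the 95% interval, and circles are the 4 classes of RP share from poorest (1, light grey) to richest (4, dark blue) with the standard error. Malat1 is above 0 in all classes (0.96 to 1.63), and Kcnq1ot1 is at 0.13 over all cells and at 0.61 in class 4. Neat1 was not tested within classes.

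Across the cells of a library, Meg3 and Rian went together most. With all UMIs, the median Pearson correlation of their log shares over the 10 libraries was 0.64 (0.39 to 0.70), and with each cell thinned to 5000 UMIs it was 0.38 (0.17 to 0.53). Meg3 and Mirg were at 0.17 (0.06 to 0.23) and Meg3 and Snhg11 at 0.34 (0.07 to 0.46) in thinned cells. Malat1 and Snhg11 were at 0.30 (0.04 to 0.53), whereas Malat1 and Meg3 were at 0.05 (-0.12 to 0.28) and Malat1 and Neat1 at 0.06. These are descriptions over 97 to 648 cells per library that share a library and the same totals, and counts of Mirg and Neat1 are sparse.

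Uninjured cells with at least 5 UMIs of a subtype marker were compared with the other cells of their library, in libraries with at least 10 such cells. Cells with Opn4, the photopigment of intrinsically photosensitive RGCs, had more Meg3 in both libraries that could be compared (24 cells, mean log2 ratio 0.76) and less Malat1 (-0.40) and Miat (-0.96). Cells with Eomes, a transcription factor of the same subtypes, were alike in sign, with Meg3 at 0.39, Malat1 at -0.35 and Miat at -0.42 (42 cells in 2 libraries). Cells with Cartpt, a neuropeptide of direction-selective RGCs, were lower in all 6 libraries in Malat1 (-0.23 ± 0.10), Meg3 (-0.27 ± 0.23), Rian (-0.49 ± 0.43), Miat (-0.51 ± 0.21) and Kcnq1ot1 (-0.30 ± 0.18; SD over 6 libraries, 678 cells). Neurod2 cells (64 cells in 2 libraries) had Malat1 at -0.26, Rian at -0.45 and Miat at -0.43, Tbr1 cells (14 cells in 1 library) had -0.22, -0.44 and -0.38, and Tfap2d cells (171 cells in 4 libraries) had Malat1 at -0.25, Rian at 0.18 and Miat at -0.08. Foxp2 cells (300 cells in 6 libraries) had Malat1 at -0.02 ± 0.16 and Miat at 0.26 ± 0.29. Zic1 cells (72 cells in 4 libraries) had Malat1 at 0.10 ± 0.21, Rian at -0.03 ± 0.09 and Miat at -0.07 ± 0.21, each with libraries on both sides of 0. These values are descriptions, and depth within the marker groups was not tested.

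Among 15 other nuclear lncRNAs, 12 could be tested, and 4 rose and 2 fell, beside 21.3 and 22.7% of all genes (median log2 fold change 0.07, against -0.03 over all genes). Dleu2, which hosts microRNAs, had the smallest adjusted p, going from 5.67 ± 1.98 to 70.5 ± 7.7 CPM (SD, log2 fold change 3.60, edgeR adjusted p = 3.3e-07). Pvt1 rose from 14.4 to 57.4 CPM (1.96, adjusted p = 1.1e-06), Rmst, the most abundant of them, from 372 to 709 CPM (0.93, adjusted p = 0.00532), and Airn, an imprinted antisense RNA like Kcnq1ot1, by 1.80 on the log2 scale (adjusted p = 3.5e-05). Snhg14, the imprinted snoRNA host of the Prader-Willi region, fell by 0.94 (adjusted p = 1.7e-04) and Peg13 fell by 0.74 (adjusted p = 0.0102). Of 14 other snoRNA hosts, 3 rose and 3 fell (median -0.23). Snhg5 was higher (log2 fold change 1.73, adjusted p = 1.3e-05), Snhg3 lower (-2.50, adjusted p = 1.7e-04), and Gas5, the most abundant, was at 257 and 247 CPM (-0.06, adjusted p = 0.777).

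Proteins of the bodies that Malat1 and Neat1 occupy were also read. Of the 13 genes described here from a list of 14 for paraspeckle proteins, 5 rose and 0 fell, beside 21.3% of all genes that rose and 22.7% that fell. Taf15, an RNA-binding protein, went from 66.0 ± 9.6 to 192 ± 29 CPM (log2 fold change 1.55, edgeR adjusted p = 6.7e-06), Cpsf7, a factor of 3′ end processing, rose by 0.74 (adjusted p = 1.9e-04), Nono, a core paraspeckle protein, by 0.67 (adjusted p = 0.00374), Fam98a by 0.59 (adjusted p = 0.00709) and Nudt21 by 0.48 (adjusted p = 0.0298). The core partners of Nono were at 0.07 (Sfpq, adjusted p = 0.731) and 0.01 (Pspc1, adjusted p = 0.969), and the most abundant gene of the list, Hnrnpk, at 0.38 (adjusted p = 0.129). Of 13 nuclear speckle and splicing genes tested, 1 rose and 2 fell (median -0.09), shares below those of all genes. Srsf2 fell by 0.85 (adjusted p = 0.0389), Srsf5 fell by 0.49 (adjusted p = 0.0497), Srsf6 rose by 0.62 (adjusted p = 0.0431), and the speckle scaffold gene Srrm2 was at 0.03 (adjusted p = 0.892). Sf1, which binds the Miat repeat, was at 0.28 (adjusted p = 0.133).

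Near the imprinted members, 3 of 5 tested genes around the Dlk1-Dio3 region rose and 1 fell, where 44.0% of all genes passed in either direction. Wars1 rose by 0.96 (edgeR adjusted p = 2.5e-05), Wdr25 by 0.74 (adjusted p = 0.00882) and Ppp2r5c by 0.30 (adjusted p = 0.0357), while Begain fell by 1.42 on the log2 scale (adjusted p = 1.5e-05). Of the paternally expressed genes of the region, Dlk1 had 53 UMIs and was not tested, and Rtl1 was at -0.77 (adjusted p = 0.398). Of 4 tested genes of the Kcnq1 domain, 0 passed with edgeR, and 0 had an unadjusted p under 0.05. Cdkn1c, the growth inhibitor that Kcnq1ot1 silences on the paternal copy, was at 24.0 ± 20.7 and 8.29 ± 5.84 CPM (-1.54, adjusted p = 0.118). Of 6 tested genes beside the other members, 1 passed, Ltbp3 near Malat1 and Neat1, which fell by 1.17 (adjusted p = 0.00360).

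Genes most like each member were sought among 5821 well-expressed genes by the Pearson correlation of log2 levels over the 9 samples with condition means removed, as a description. Malat1 was most like Rnps1 (0.99), a splicing-linked protein of nuclear speckles, Tcea1 (0.98) and Prpf4b (0.98). Kcnq1ot1 was most like Srrm4 (1.00), a neuronal splicing factor, Xrn1 (0.99) and Mtf2 (0.99), Meg3 most like Rap1gap2 (0.99), Atxn1 (0.98) and Nebl (0.98), Miat most like Rbpms (0.96), Tmem87a (0.95) and Armc8 (0.95), and Snhg11 most like Arl5a (0.97), Fam76a (0.94) and Adnp (0.94). Mirg was most like Iars (0.95), Gsdme (0.95) and Rnf4 (0.95), Rian most like Cpq (0.93), Sgcz (0.90) and Vgf (0.87), and Neat1 most like Gm10125 (0.97), Ldah (0.96) and Exoc6 (0.95). Since uninjured libraries came in similar pairs, the 9 points are not independent.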

How the data were processed

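Single RGCs were profiled by droplet scRNA-seq. The authors deposited unnormalised UMI counts of every gene in each cell, with cells already selected (the deposited cells have at least 821 genes and at most 19.8% mitochondrial UMIs). The submitters' processing notes name Cell Ranger 7.0.1 and mm39. The labels and the study's methods differ on kit, sequencer and Cell Ranger version, so whether intronic reads were counted, which matters for nuclear RNAs, is not settled here. Whether cells were also sorted differs too. Doublets were not called here, and cells with markers of another class were left out as an alternative.

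Counts were summed per library, injured 3 and 4 averaged and rounded. Genes passing filterByExpr were fitted with edgeR 4.0.16 (TMM, robust quasi-likelihood, R 4.3.3) and tested on simulated counts first. The sources give no pairing of the replicate numbers. Single values used exact permutation tests (scipy 1.17.1), two-sided. Intervals are 95%. Alternatives included DESeq2 1.42.0 and limma 3.58.1. The RNAs and gene lists were chosen with earlier results of these data known. Named genes are the 8 RNAs and, per list, the 2 with smallest adjusted p and the most abundant. Others that passed, and Sfpq, Pspc1, Sf1, Rtl1 and Dlk1, were named after their values were seen. A gene of the paraspeckle list is not reported here, so the counts for that list are incomplete and no median is given.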

Additional observations from a re-analysis of the deposited data

Results flagged for a closer look

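UMIs of mCherry, a fluorescent reporter that the labels do not mention, were found in 7.99% of the cells of injured 1, 15.02% of injured 2, 86.0% of injured 3 and 84.3% of injured 4, and in 0 cells of the 6 uninjured libraries. It stood out as a signal outside the measured genes and above the uninjured libraries. In injured 3, Malat1 took 8.21% of UMIs in cells with mCherry and 6.44% in cells without, Meg3 0.362 and 0.726%, and Rian 0.0302 and 0.0755%, and the RP share was 5.30 and 1.17%. In injured 4, which shares most of its cells, Malat1 was at 7.97 and 7.76%, and in injured 2 at 6.79 and 5.97%. In injured 1 the values with and without were 6.77 and 7.13% for Malat1, 0.460 and 0.453% for Meg3 and 5.45 and 5.23% for RP. Cells without mCherry numbered 311, 232, 74 and 74 in injured 1 to 4. Among them, the log2 fold changes of Malat1 (1.13) and Miat (1.12) passed edgeR. Neat1 (2.41) passed too, but it entered the main test only through its injured samples, so this pass is no separate support. Those of Mirg (-0.12, adjusted p = 0.655) and Snhg11 (-0.41, adjusted p = 0.161) did not pass. Meg3 was at 0.60, Rian at 0.46 and Kcnq1ot1 at 0.45 without passing. Miat took 0.0371 and 0.0333% in such cells of injured 3 and 4, but 0.0104 and 0.00984% in those of injured 1 and 2. Cells with mCherry had 0.0109, 0.0119, 0.0137 and 0.00925% in the same order. The 6 uninjured samples were also checked for a single sample far from the others, in 16 measures (levels, summed share and RP ratios), and none was found. This check cannot find a pair of libraries that stands apart, and the 3 injured samples were too few for it.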

How the results depend on the processing

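Over 32 alternatives, 217 of 252 log2 fold changes kept direction and side of the threshold, 23 no longer passed, 1 newly passed and 11 changed sign. The count of members past the threshold, 5, was 3 without a filter on low counts, in cells thinned to 5000 UMIs, in cells between the quartiles of RP share and without mCherry cells, and 1 with similar libraries summed, which leaves fewer samples. It was 3 to 5 with libraries left out in turn, and 3 without injured 1, injured 2 or injured 3 and 4. All sign changes were in Rian and Kcnq1ot1, which did not pass. Rian was at -0.044 with upper-quartile factors, -0.064 with library totals alone, -0.00081 with limma-voom, -0.011 with at least 10 counts in every library, -0.082 in thinned cells, -0.0067 without injured 3 and 4, and from -0.020 to 0.065 with libraries left out in turn. Kcnq1ot1 was at -0.0034 with limma-voom, -0.21 with libraries 1 to 4 and -0.22 with the replicate block. Meg3 passed among cells between the RP quartiles (0.58, adjusted p = 0.0231). Neat1 could not be fitted among thinned cells, between the RP quartiles or with at least 10 counts in every library. The cause was not tested.

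Replicate numbers did not pair the samples (same-number correlations -0.06, 0.01, -0.03 and -0.05). With libraries 1 to 4, 8230 genes passed without and 7782 with the replicate block, and 5 members passed in both fits, which count injured 3 and 4 as separate samples although they share most of their cells. The share of the 8 RNAs kept its direction in 17 of 17 alternatives (3.28 to 4.21 points), and the 7 RP ratios passed in 14 of 14, all of which take similar libraries as independent. Without cells under 1% RP UMIs, the ratios fell to 0.90 for Rian, 0.90 for Kcnq1ot1, 0.69 for Miat, 0.63 for Meg3 and 0.57 for Mirg. Snhg11 was then at 0.55 and Malat1 at 0.50, both above their values over all cells. With similar libraries averaged into 5 sets, an alternative chosen after seeing the data, the ratios were 0.32 to 1.41, and that design cannot pass the threshold. Neat1 had the fewest UMIs of the 8 RNAs. Intervals cover the spread between libraries, which may be technical.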
